A study of Rattus norvegicus with 16 samples.

Results

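Messenger RNA of 10 core circadian clock genes was followed in the lungs of 16 male rats: the activators Bmal1, Clock and Npas2, the repressors Per1, Per2, Per3 and Cry1, the nuclear receptors Nr1d1 and Nr1d2, and the output factor Dbp. They are 10 of the 14506 genes that the array table names. The list was put together with results of these arrays in view, above all the higher Per1 with estradiol, so its values are a description, and the p-values given for its members lend no independent support to the choice. Each of the 10 genes had 1 probe set annotated to it alone. Had there been several, the probe set would have been selected on its mean signal over all 16 arrays.

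The animals were Sprague-Dawley rats of 250 to 300 g, with 4 rats in each of 4 groups and 1 array per rat. The normoxia group was not exposed to hypoxia or to either drug. The hypoxia group spent 2 weeks in a low-pressure chamber at 362 mmHg, which corresponds to 10% oxygen at sea level. The estradiol group had the same hypoxia and carried a pump under the skin that released estradiol, the main circulating estrogen, at 75 µg/kg/day for 3 weeks, from 1 week before the hypoxia began. The fulvestrant group had the hypoxia and the estradiol pump and was also injected each day under the skin with 3 mg/kg of fulvestrant (ICI in the labels), an antagonist of both nuclear estrogen receptors. No group received fulvestrant without estradiol or estradiol without hypoxia. The labels mention neither an empty pump for the rats without estradiol nor the age of the animals. They also do not give the hour at which any lung was taken, and hour of collection and group cannot be told apart here. The series title asks whether estrogen receptors carry an effect of estradiol on the hypoxic lung.

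The circadian clock is a feedback loop of transcription that runs in nearly every cell, the lung included. BMAL1, paired with CLOCK or its relative NPAS2, switches on the Per and Cry genes, whose proteins return to the nucleus and block the pair. A second loop closes through NR1D1 and NR1D2, which BMAL1 also switches on and which repress Bmal1 through a short DNA motif, the RORE. Bmal1 RNA therefore runs in opposite phase to Nr1d1, Nr1d2, Dbp and Per3 over the day, and the level of all of them depends strongly on the hour. Glucocorticoids set the phase of clocks outside the brain, in part by inducing Per1 directly.

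Whole right lung was profiled after its vessels had been flushed with saline, and every RNA integrity number was at least 9. Array medians lay between 7.69 and 7.77 on the log2 scale, and the correlation across genes between arrays was 0.985 to 0.996. The mean log2 signals of the 10 lung epithelial markers were 12.1 to 13.92, the last for surfactant protein C (Sftpc). On the second principal component, which held 17.4% of the variance, estradiol replicates 2 and 3 (-25.4 and -22.3) stood apart from the other arrays (-5.18 to 7.85). Normoxia replicate 4 has the title of a normoxic sample and a treatment label of hypoxia, and it was kept as normoxia. On the first component, which held 22.1% of the variance, it lay with the normoxia arrays. It stood at -19.7, the other normoxia arrays at -20.8 to -12.0 and the hypoxia arrays at 1.44 to 16.3.

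The proximal promoters of 3 of the genes held the letters of a clock motif. RefSeq promoters on GRCr8, from 250 bases before to 50 after the transcription start, exist in the table used for 9 of the 10 genes, in 11 entries. The motifs below were searched on both strands. The E-box CACGTG is bound by BMAL1 with CLOCK or NPAS2, and CACGTT is a variant of it. TNGGTCA is the core of the RORE, and TTANGTAA is the D-box bound by DBP and its relatives. Of the 33469 rat promoters of this length, 6.42% held the E-box, 4.83% the variant, 11.1% the RORE core and 2.24% the D-box. The sequences with a match are printed in the direction of the gene with the motif in capitals, except that of the first Nr1d1 start site. They are shown to let the letters be seen in place. A match is a description and no binding was measured. The RORE core was in 1 of the 9 genes, near its share of all promoters. The share of all promoters with any of these motifs was not counted, so 3 of 9 genes cannot be called more than that share.
Bmal1 (chr1:176766078-176766377, plus strand, RORE core TAGGTCA beginning 16 bases before the start): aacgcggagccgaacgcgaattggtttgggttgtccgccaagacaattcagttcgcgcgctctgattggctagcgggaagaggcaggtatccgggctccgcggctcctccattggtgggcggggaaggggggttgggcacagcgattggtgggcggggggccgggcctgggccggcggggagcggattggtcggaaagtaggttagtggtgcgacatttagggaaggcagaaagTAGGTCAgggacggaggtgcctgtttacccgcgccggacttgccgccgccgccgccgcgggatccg
Per2 (chr9:99496944-99497243, minus strand, D-box TTATGTAA 192 bases and variant E-box CACGTT 62 bases before the start): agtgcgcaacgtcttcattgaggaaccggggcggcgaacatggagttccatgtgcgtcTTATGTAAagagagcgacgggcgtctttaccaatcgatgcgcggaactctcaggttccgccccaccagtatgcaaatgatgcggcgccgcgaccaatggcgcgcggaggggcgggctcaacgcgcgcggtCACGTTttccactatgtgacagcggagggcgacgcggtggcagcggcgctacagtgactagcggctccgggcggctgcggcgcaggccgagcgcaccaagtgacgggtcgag
Nr1d1, second start site (chr10:84229405-84229704, minus strand, E-box CACGTG 191 bases before the start): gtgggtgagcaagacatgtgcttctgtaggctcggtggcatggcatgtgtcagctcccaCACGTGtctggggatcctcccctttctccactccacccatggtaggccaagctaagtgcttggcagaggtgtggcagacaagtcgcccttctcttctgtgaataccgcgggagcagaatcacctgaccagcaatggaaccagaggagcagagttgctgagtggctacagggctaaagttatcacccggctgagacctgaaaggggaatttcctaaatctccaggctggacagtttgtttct
The first start site of Nr1d1 (chr10:84231763-84232062) held the variant E-box on the opposite strand, read as AACGTG, 174 bases before it. None of the matches overlapped another. The windows of Per1, Per3, Dbp, Clock, Npas2 and Nr1d2 held none of these letters, which describes the windows only. The table used has no entry for Cry1.

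With estradiol, Per1 and Per2 were the clock genes that stood highest above the hypoxia group. Per1 is an early-responding repressor of the BMAL1 pair. Its log2 signal was 11.07, 11.85, 11.55 and 10.50 in the estradiol lungs (replicates 1 to 4). It was 10.08, 10.40, 9.69 and 9.54 in hypoxia alone, so the lowest estradiol lung lay above the highest hypoxia lung. The mean rose 2.48-fold, from 9.93 ± 0.39 to 11.24 ± 0.59 (SD, n = 4 each), a log2 difference of 1.31 with a standard error (SE) of 0.28 and a 95% confidence interval of 0.73 to 1.90 (limma, Benjamini-Hochberg adjusted p over all genes = 0.0392). Per1 was the only one of the 10 genes to pass an adjusted p of 0.05 in estradiol against hypoxia, where 0.772% of all genes passed. That call sat near the threshold: on leaving out each of the 16 arrays in turn it stayed in 6 cases and was lost in 10, with an adjusted p from 0.0131 to 0.124. The arrays whose loss ended it were normoxia replicate 2, all 4 hypoxia replicates, estradiol replicates 2 and 3, and fulvestrant replicates 1, 2 and 4. Without estradiol replicates 2 and 3, the arrays that stood apart, the difference was 0.86 and the adjusted p was 0.392. With normoxia replicate 4 counted as hypoxia it was 1.23 and the adjusted p was 0.0936. Under both of these settings limma passed 0 of all genes, and 9.2% and 13.2% had an unadjusted p under 0.05. In a bulk lung, more RNA per cell and more cells that carry the RNA cannot be told apart.

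Per2, the repressor most tied to setting the period of the clock, reached 10.28, 9.57, 9.10 and 9.37 with estradiol. Under hypoxia alone it was 8.30, 9.09, 8.86 and 8.02. The groups did not overlap, but the gap between estradiol replicate 3 and hypoxia replicate 2 was only a hundredth of a log2 unit. The log2 difference was 1.01 (SE 0.23), 2.02-fold, with limma's adjusted p = 0.0572. Of the 10 clock genes, 2 had non-overlapping estradiol and hypoxia arrays, Per1 and Per2, against 6.65% of all genes. At an unadjusted p under 0.05 the count was 5, against 16.1% of genes, and the added genes were Bmal1, Npas2 and Per3.

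The activators lay lower on average with estradiol, by an amount that depended on which lungs were counted. Bmal1, the activator that the loop cannot do without, was 7.55, 9.18, 9.33 and 10.18 in estradiol replicates 1 to 4. In hypoxia it was 10.01, 9.39, 10.06 and 9.99. Replicate 1 had the lowest Bmal1 of all 16 lungs and replicate 4 the highest, so the estradiol group spanned the whole range of the study. Npas2, which can stand in for Clock, was 8.65, 10.30, 10.24 and 9.92 with estradiol and 10.38, 10.28, 10.45 and 10.48 in hypoxia. Clock itself differed little between lungs, from 10.61 in estradiol replicate 1 to 11.21 in normoxia replicate 2. Against hypoxia, the log2 difference was -0.80 (SE 0.36) for Bmal1, -0.62 (SE 0.26) for Npas2 and -0.17 (SE 0.09) for Clock, with limma's adjusted p = 0.289, 0.256 and 0.349. Without estradiol replicate 1 it was -0.30 for Bmal1 and -0.25 for Npas2.

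Dbp, Per3, Nr1d1 and Nr1d2, all targets of the BMAL1 pair, were higher in estradiol replicates 1 to 3 than in replicate 4. Dbp, a transcription factor that carries clock time to output genes through the D-box, was 12.18, 10.84, 10.32 and 9.68 with estradiol against 9.86, 10.73, 9.64 and 9.71 in hypoxia. Per3, a Per gene that the loop can run without, was 10.23, 9.69, 9.31 and 8.37 against 8.58, 9.25, 8.40 and 8.25. Nr1d1, the repressor of Bmal1, was 12.02, 11.51, 10.92 and 8.37 against 10.77, 11.55, 9.13 and 9.88. For each of the 3 genes, estradiol replicate 1 was the highest lung of the study, and replicate 4 lay within or below the hypoxia range. The log2 differences from hypoxia were 0.77 for Dbp (SE 0.39), 0.78 for Per3 (SE 0.33), 0.50 for Nr1d2 (SE 0.39), 0.37 for Nr1d1 (SE 0.74) and 0.18 for Cry1 (SE 0.21), and none passed, with adjusted p between 0.264 and 0.849. Over the 10 genes the median log2 difference was 0.44, against -0.02 over all genes.

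**Figure D1:**
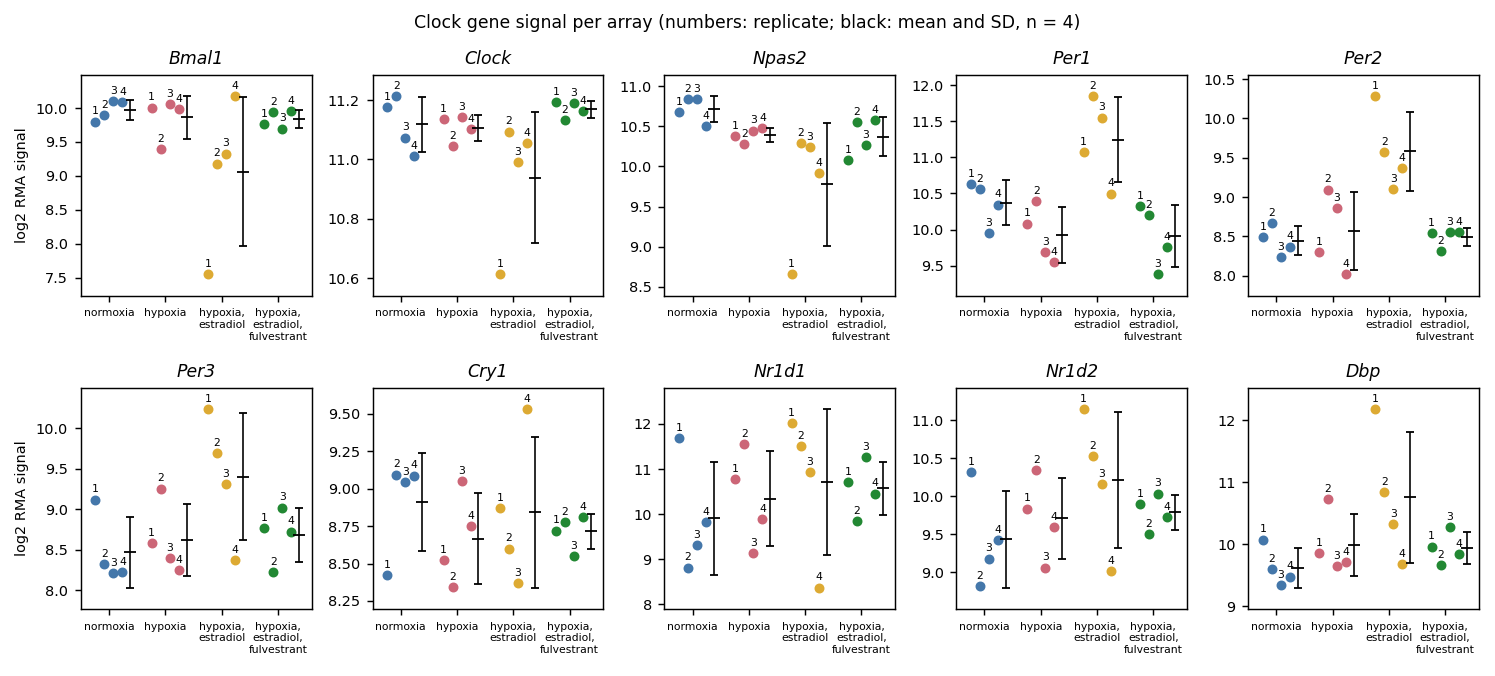
Log2 RMA signal of the 10 clock genes on the y axes, 1 panel per gene, for the 4 groups; each point is 1 lung numbered by replicate, and the black bar gives the mean and SD of 4 lungs. Estradiol replicate 1 is lowest for Bmal1 (7.55), Npas2 (8.65) and Clock (10.61) and highest for Dbp (12.18), Per2 (10.28) and Per3 (10.23), while the fulvestrant lungs lie close together for Per2 (8.32 to 8.56) and Bmal1 (9.70 to 9.95).

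When fulvestrant was added to estradiol, Per1 and Per2 lay within the hypoxia range or near it. Per1 was 10.32, 10.20, 9.38 and 9.76 in the 4 fulvestrant lungs, a mean of 9.91 ± 0.43. That is 2.51-fold below the estradiol group, a log2 difference of -1.33 (SE 0.28; limma's adjusted p = 0.0638). Per2 was 8.54, 8.32, 8.56 and 8.56, 2.12-fold below estradiol (log2 -1.09, SE 0.23, the same adjusted p). All 4 fulvestrant lungs lay below all 4 estradiol lungs for both genes. For Clock all 4 lay above (11.13 to 11.19 against 10.61 to 11.09), with a log2 difference of 0.23 (SE 0.09; adjusted p = 0.214). These 3 of 10 genes compare with 9.05% of all genes that did not overlap.

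None of the 10 genes passed in fulvestrant against estradiol by limma, where 0.0483% of all genes passed, 7 in number. At an unadjusted p under 0.05 there were 6 clock genes (Bmal1, Clock, Npas2, Per1, Per2 and Per3), against 14.8% of all genes. Without estradiol replicate 4, Per1 (log2 -1.58, adjusted p = 0.0117) and Per2 (-1.16, adjusted p = 0.0300) passed, and so did 331 of all genes (2.28%) in place of 7. Bmal1 was 9.77, 9.94, 9.70 and 9.95 with fulvestrant, inside the spread of the estradiol lungs, and the log2 difference was 0.78 (SE 0.36; adjusted p = 0.328). The remaining differences ran from -0.82 for Dbp to -0.13 for Cry1, apart from Npas2 at 0.59. Estradiol against hypoxia and fulvestrant against estradiol share the estradiol lungs, so opposite signs in them follow in part from the shared arrays.

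Set directly against hypoxia, the fulvestrant group differed by no more than 0.23 on the log2 scale in any of the 10 genes (-0.07 to 0.23), with adjusted p from 0.926 to 0.995. For Per1 the difference was -0.02, with a 95% interval of -0.60 to 0.57. A change within those bounds was not detectable with these arrays. By limma 0% of all genes passed in this comparison, and 1009 genes, 6.96%, had an unadjusted p under 0.05. Against normoxia 0 of the 10 passed in the fulvestrant group, where 2.96% of all genes did.

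Between hypoxia alone and normoxia no clock gene passed the test. Against normoxia the log2 differences ran from -0.44 for Per1 to 0.43 for Nr1d1. By limma 0 of the 10 passed and 0 had an unadjusted p under 0.05, while 5.63% of all genes passed and 20.4% had an unadjusted p under 0.05. That share of passing genes was 0.276% (40 genes in place of 817) with normoxia replicate 4 counted as hypoxia and 2.95% without normoxia replicate 1, and 0 of the 10 passed in either case. In Per1 the difference of -0.44 (SE 0.28, adjusted p = 0.400) came from 10.63, 10.56, 9.95 and 10.35 in normoxia, so the groups overlapped. Npas2 was the 1 gene whose groups did not overlap, at 10.68, 10.84, 10.85 and 10.50 in normoxia and 10.28 to 10.48 in hypoxia, against 12.1% of all genes. Its log2 difference was -0.32 (SE 0.26, adjusted p = 0.537). That SE is pooled over all 4 groups, and the SD of Npas2 was 0.16 in normoxia, 0.09 in hypoxia and 0.77 with estradiol. With only the normoxia and hypoxia arrays in the limma fit, the adjusted p was 0.0814. The median difference over the 10 genes was 0.06, against 0.03 over all genes.

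Against normoxia, the estradiol group had higher Per2 and lower Npas2. Per2 was 8.49, 8.67, 8.24 and 8.37 in normoxia (8.44 ± 0.18), and the estradiol mean of 9.58 ± 0.51 was 2.20-fold higher (log2 1.14, SE 0.23; limma's adjusted p = 0.0111). It passed on leaving out any array, with adjusted p from 0.00706 to 0.0295. Npas2 fell 1.92-fold, from 10.72 ± 0.16 to 9.78 ± 0.77 (log2 -0.94, SE 0.26; adjusted p = 0.0460). Every estradiol lung lay below every normoxia lung in Npas2, and without the 8.65 of replicate 1 the log2 difference was -0.57. Its adjusted p ran from 0.0230 to 0.117 as single arrays were left out, and it passed in 3 of the 16 cases, without estradiol replicate 1, 2 or 3. It missed the threshold without any normoxia, hypoxia or fulvestrant array (0.0545 to 0.117) and without estradiol replicate 4 (0.0539). With normoxia replicate 4 counted as hypoxia, the adjusted p was 0.064 for Npas2 and 0.0344 for Per2. Without estradiol replicates 2 and 3 it was 0.00761 and 0.0157.

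These were 2 of 10 genes, against 5.21% of all genes that passed and 9.21% whose groups did not overlap. Dbp (log2 1.13, SE 0.39), Per3 (0.93, SE 0.33), Bmal1 (-0.91, SE 0.36) and Per1 (0.87, SE 0.28) followed, with adjusted p = 0.114, 0.126, 0.181 and 0.0859. Without estradiol replicate 4 the count rose from 2 to 6, by the addition of Bmal1, Per1, Per3, Nr1d2 and Dbp and the loss of Npas2, while 6.11% of all genes passed. That lung thus held Bmal1, Per3, Dbp and Nr1d2 of its group nearer to normoxia, at 10.18, 8.37, 9.68 and 9.02.

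**Figure D2:**
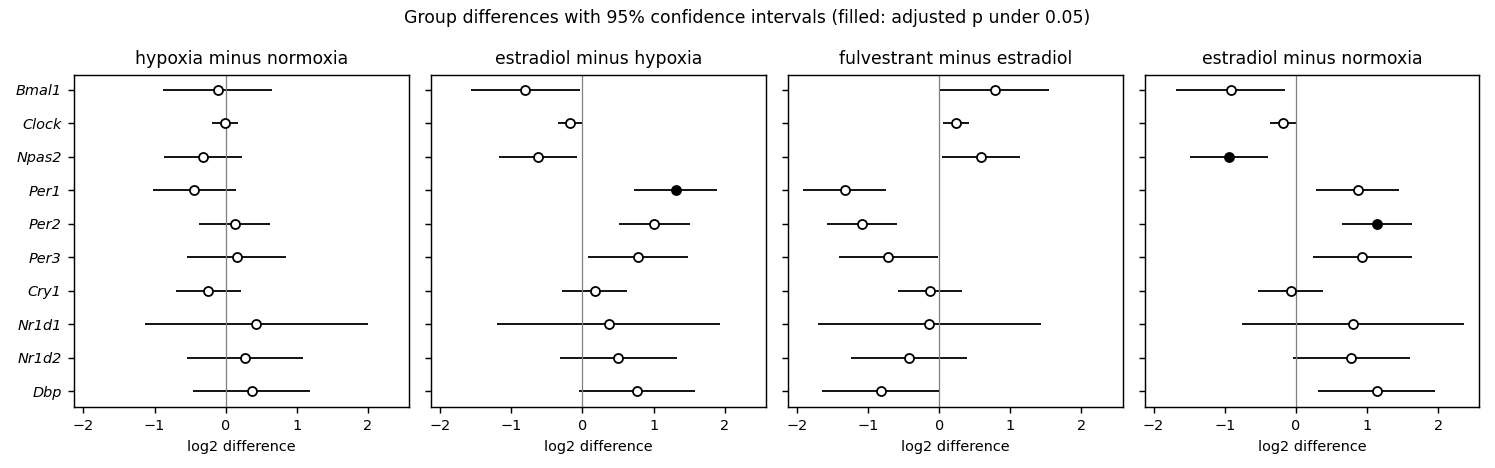
Log2 differences between group means on the x axes for the 10 clock genes, with bars for the 95% confidence interval of the limma fit; filled points have an adjusted p under 0.05 over all genes. The filled points are Per1 in estradiol minus hypoxia (1.31) and, in estradiol minus normoxia, Per2 (1.14) and Npas2 (-0.94), and no point is filled for hypoxia minus normoxia or fulvestrant minus estradiol.

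Of the 10 clock genes, 9 spread more widely within groups than most of the transcriptome. The pooled SD within groups was 1.19 for Nr1d1, the 7th largest of 14506 genes, and 0.62 for Dbp (83rd), 0.62 for Nr1d2 (85th) and 0.58 for Bmal1 (103rd). Per3 (0.53), Per1 (0.44), Npas2 (0.41), Per2 (0.37) and Cry1 (0.34) followed, at ranks 134, 226, 282, 396 and 506. Clock stood at 0.12, rank 7292, beside a median over all genes of 0.123. In oscillating tissues Clock RNA is known to cycle weakly, and here it varied no more than the typical gene.

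In all 10 genes the SD was largest in the estradiol group, as it was in 39.6% of all genes. Bmal1 spanned 6.20-fold from the lowest to the highest estradiol lung, Dbp 5.66-fold and Nr1d1 12.6-fold. With fulvestrant added the same spans were 1.19-fold, 1.53-fold and 2.69-fold, and 8 of the 10 genes had their smallest SD there, as did 37.4% of all genes. The median SD of the 10 genes was 0.776 with estradiol, 0.415 in hypoxia, 0.315 in normoxia and 0.237 with fulvestrant. The corresponding medians over all genes were 0.129, 0.115, 0.107 and 0.0917. Estradiol replicates 1 and 4 were the ends of the estradiol range for Bmal1, Dbp and Nr1d1. The SD was still largest in the estradiol group for 7 of the 10 genes without replicate 1, against 36.4% of all genes. Without replicate 4 it was 6 of 10, against 39.8%. Without replicates 2 and 3 it was 9 of 10, against 26.2%. Without replicates 1 and 4 it was 0 of 10, against 31.1%, and the median SD was 0.238. Leaving out the ends of a range lowers the SD by construction, so that last count cannot show what the spread rested on. No test was made of the difference in spread.

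Nr1d1 was also variable without any treatment. In normoxia it was 11.69, 8.81, 9.30 and 9.81, a 7.37-fold span, and Nr1d2, its close relative, was 10.31, 8.82, 9.18 and 9.42 in the same lungs. Normoxia replicate 1 was high for both, and also had the highest Per3 (9.12) and Dbp (10.07) and the lowest Bmal1 (9.80) and Cry1 (8.42) of its group. In hypoxia replicate 2 stood out in the same way, with Nr1d1 at 11.55, Dbp at 10.73, Per3 at 9.25 and Per2 at 9.09 beside the group's lowest Bmal1 (9.39) and Cry1 (8.34). The arrangement was turned round in part in estradiol replicate 4, with the lowest Nr1d1 (8.37) and the highest Bmal1 (10.18) and Cry1 (9.53) of all 16 lungs. Its Per2 (9.37) lay above, and its Npas2 (9.92) below, every lung outside the estradiol group. Dbp in that lung was 0.06 above the normoxia mean.

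**Figure D3:**
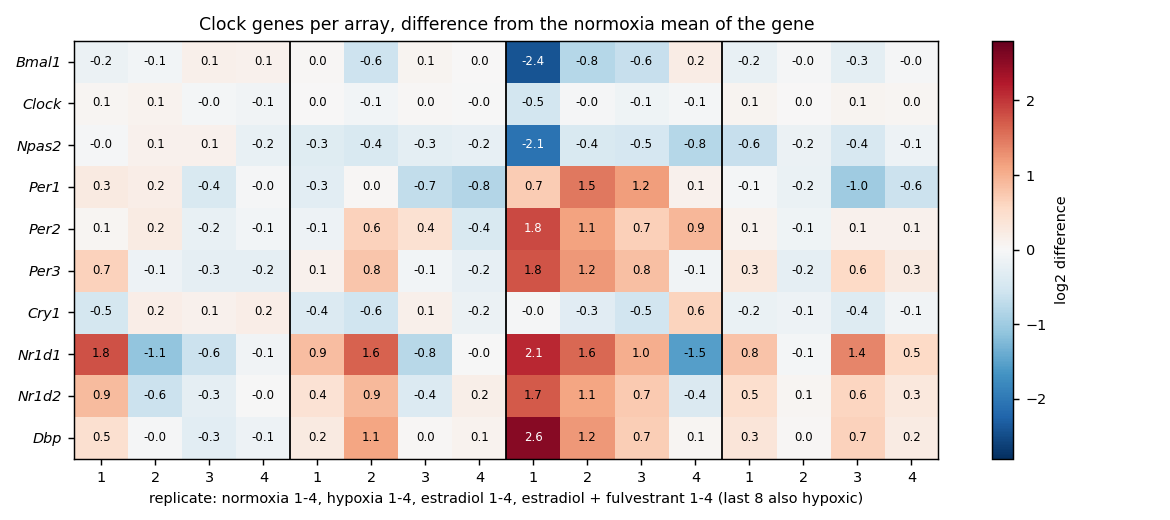
Heat map of each clock gene (rows) in each of the 16 lungs (columns, in groups of 4), as the log2 difference from that gene's normoxia mean; red is higher and blue is lower. Estradiol replicate 1 has the darkest cells, with Bmal1 and Npas2 blue and Dbp, Nr1d1, Per2, Per3 and Nr1d2 red, and normoxia replicate 1 and hypoxia replicate 2 are red for Nr1d1.

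Averaged by limb, the activators and the Per and Dbp genes lay on opposite sides of normoxia in every estradiol lung, to unequal degrees. The mean of Bmal1, Clock and Npas2, relative to normoxia, was -1.66, -0.41, -0.42 and -0.22 in estradiol replicates 1 to 4. The mean of Per1, Per2, Per3 and Dbp in the same lungs was 1.72, 1.26, 0.84 and 0.25. In hypoxia the activators stood at -0.09, -0.36, -0.05 and -0.08 and the Per and Dbp genes at -0.02, 0.64, -0.08 and -0.35. With fulvestrant the activators stood at -0.26, -0.06, -0.22 and -0.04 and the Per and Dbp genes at 0.17, -0.13, 0.08 and -0.01. In normoxia the activators stood at -0.05, 0.05, 0.07 and -0.07 and the Per and Dbp genes at 0.35, 0.06, -0.29 and -0.12. Normoxia replicate 1 thus showed the same arrangement as the estradiol lungs, with Per and Dbp genes higher than in estradiol replicate 4. All 4 estradiol lungs had activators below 0 and Per and Dbp genes above 0, and hypoxia replicate 2 was the only hypoxia lung above 0 for the latter. That hypoxia lung showed the same arrangement, farther from 0 on both sides than estradiol replicate 4. Fulvestrant replicates 1 and 3 showed it too, and the activators lay below 0 in every hypoxia and fulvestrant lung. These means are descriptive, since the genes were chosen with this pattern known.

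Within groups, lungs with less Bmal1 had more of the genes that run opposite to it. Deviations from the group means were correlated over the 16 lungs, and p-values came from 100000 2-sided permutations of lungs within groups, adjusted over 9 pairs. For Bmal1 and Dbp, Pearson's r was -0.958 and Spearman's rho -0.906 (permutation p = 3e-05 and 5e-05, adjusted 0.000225 and 0.00045). For Bmal1 and Per3, r was -0.833 and rho -0.697 (permutation p = 5e-05 and 0.00332, adjusted 0.000225 and 0.0149). For Bmal1 and Nr1d2, r was -0.779 and rho -0.635 (permutation p = 0.00986 and 0.0232, adjusted 0.0296 and 0.044). These 3 pairs passed by r.

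The lungs farthest from the middle in Bmal1 were estradiol replicates 1 and 4, with deviations of -1.51 and 1.12. Without them r was -0.944 for Dbp and -0.841 for Per3 (adjusted permutation p = 0.0027 and 0.00387), and so neither rested on those lungs. For Nr1d2 r was -0.678 with an adjusted permutation p of 0.058, which missed the threshold. Nr1d1, the repressor of Bmal1 in the second loop, had r = -0.696 and rho = -0.585 (adjusted permutation p = 0.0562 and 0.0642), and r = -0.685 (adjusted permutation p = 0.0437) without those lungs. By rho neither receptor gene passed without them, at -0.565 for Nr1d1 and -0.578 for Nr1d2 (adjusted permutation p = 0.14 for each).

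The remaining pairs did not pass by r. Per2 had r = -0.705 and rho = -0.706 (adjusted permutation p = 0.0783 and 0.0344), and passed by rho alone, with an r of -0.648 and a rho of -0.473 without the same lungs (adjusted permutation p = 0.0949 and 0.147). Per1 had r = -0.253 and rho = -0.279 (unadjusted permutation p = 0.629 and 0.375), and r = -0.501 without estradiol replicates 1 and 4. Clock had rho = 0.4 and Npas2 rho = 0.571, with adjusted permutation p = 0.23 and 0.044, so that Npas2 passed by rho. Clock and Npas2 had r = 0.763 and 0.759 over all lungs (adjusted permutation p = 0.202 and 0.217) but -0.092 and 0.394 without estradiol replicates 1 and 4. Without those lungs rho was -0.125 for Clock and 0.429 for Npas2 (adjusted permutation p = 0.703 and 0.14). Leaving out the ends of the Bmal1 range can lower a correlation by itself, so these values cannot show what the relation rested on. Cry1, which peaks later in the day than the other repressors, had r = 0.396 and rho = 0.379 (adjusted permutation p = 0.46 and 0.23). When the values were taken with the group means left in, 8 of the 9 pairs passed by r and 6 by rho, against 3 and 5 with deviations.

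**Figure D4:**
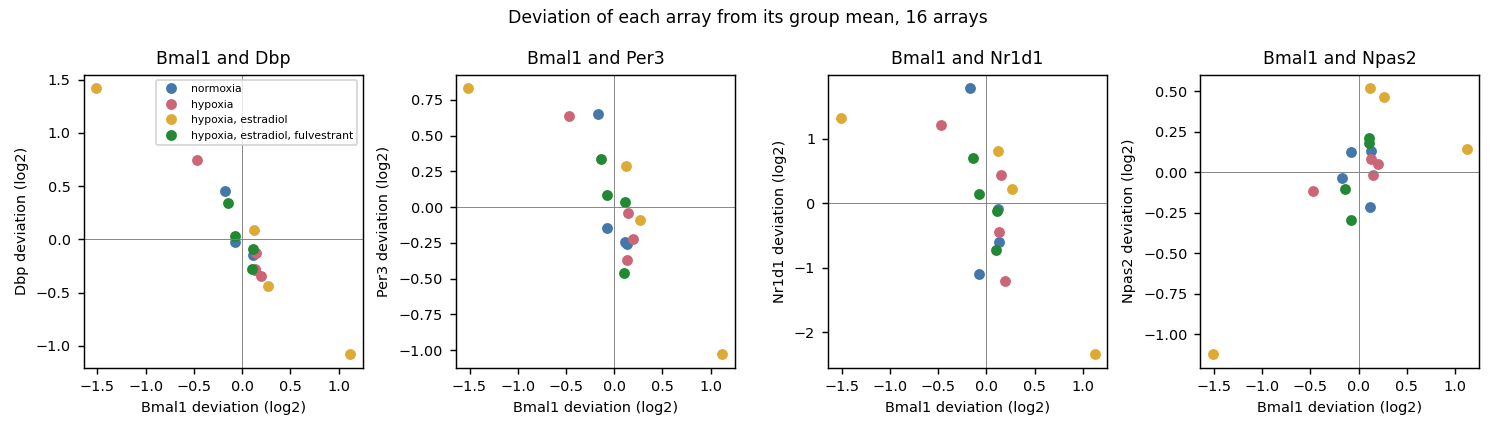
Deviation from the group mean of Bmal1 (x axes, log2) against that of Dbp, Per3, Nr1d1 and Npas2 (y axes, log2), with 1 point per lung and colours for the 4 groups. Dbp falls along a line as Bmal1 rises (r = -0.958), Per3 and Nr1d1 fall with more scatter (-0.833 and -0.696), and Npas2 rises (0.759), with estradiol replicate 1 at the lower left.

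Among the other pairs of members, Nr1d1 and Nr1d2 had a correlation of deviations of 0.983 over the 16 lungs. Per3 had 0.929 with Dbp, 0.926 with Nr1d2 and 0.925 with Nr1d1, Cry1 had -0.854 with Nr1d1, and Clock had 0.83 with Npas2. These are given as a description, with no p, for values from the same arrays.

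The genes whose deviations were most like those of Bmal1 were sought over all 14505 other genes. From the negative end, Dbp ranked 2nd, Per3 12th, Nr1d2 18th, Per2 51st and Nr1d1 62nd. The lowest genes outside the list were Epm2a, which encodes the glycogen phosphatase laforin (r = -0.964), Tef, a relative of Dbp that binds the same D-box (-0.898), Ephx1, a microsomal epoxide hydrolase (-0.881), Imp3 (-0.866) and Osgin1 (-0.854). Tef was 11.08, 10.31, 10.13 and 9.98 in the estradiol lungs, the order of Dbp there. Epm2a was 9.25, 8.32, 7.91 and 7.43, again highest in replicate 1 and lowest in replicate 4, the reverse of Bmal1. From the positive end, Clock ranked 27th and Npas2 32nd, behind Pnpla3 (0.894), Sypl2 (0.870), Ugt2b7 (0.866), Or9s15 (0.865) and Slc28a3 (0.857). Of these, only Slc28a3 had signals above the array medians. The rest lay below the medians in every lung, with Ugt2b7 the lowest at 3.91 to 4.43. All 10 correlations are over 16 lungs from the same arrays and carry no p.

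Few other parts of the clock machinery passed the test. Of 17 further core components 11 were measured, among them Cry2, the casein kinases Csnk1d and Csnk1e that phosphorylate PER proteins, and the ubiquitin ligase subunits Btrc and Fbxw11 that mark them for breakdown. None passed in estradiol against hypoxia or in fulvestrant against estradiol, and the median log2 differences were 0.03 and -0.04. In hypoxia against normoxia 1 of 11 rose, Bhlhe40 (log2 0.83, SE 0.23, limma's adjusted p = 0.0486), a repressor of the BMAL1 pair that hypoxia is also known to induce. In estradiol against normoxia 2 rose, Bhlhe40 (1.10, adjusted p = 0.0135) and its relative Bhlhe41 (1.49, SE 0.25, adjusted p = 0.00315), which is named because of its value. The shares of all genes that passed in these comparisons were 5.63% and 5.21%, in that order. Cry2 was 0.25 (SE 0.11) above hypoxia with estradiol, with an adjusted p of 0.287.

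Of 14 proline- and acid-rich (PAR) bZIP factors and clock output genes, 12 were measured. In estradiol against hypoxia 1 rose, Tsc22d3, a glucocorticoid-induced inhibitor of inflammation (log2 0.90, SE 0.18, limma's adjusted p = 0.0362), and 0 fell. The median was 0.37, against -0.02 over all genes, of which 0.772% passed. In fulvestrant against estradiol none passed and the median was -0.42, and in estradiol against normoxia none passed and the median was 0.34. Wee1, a cell cycle kinase switched on by the BMAL1 pair, was 0.55 (SE 0.17) higher with estradiol than in hypoxia, adjusted p = 0.137. Tef stood at 0.36 (SE 0.19, adjusted p = 0.369).

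Some glucocorticoid-responsive genes passed the test, in a list chosen with earlier results of these data known. In estradiol against hypoxia 0.772% of all genes passed. Of 18 such genes, Per1 not counted and Tsc22d3, Cdkn1a and Pdk4 shared with the output list, 3 rose in estradiol against hypoxia: Tsc22d3, Klf9 (log2 0.71) and Hif3a (0.96). The median was 0.54, and in fulvestrant against estradiol it was -0.57, where none passed. The mean of the 18 relative to normoxia was 0.23, 0.80, 0.42 and 0.19 in estradiol replicates 1 to 4, beside 11.07, 11.85, 11.55 and 10.50 for Per1. It was -0.12 to 0.01 in hypoxia and -0.26 to 0.10 with fulvestrant. In normoxia it was 0.30, -0.18, -0.12 and 0.01, so normoxia replicate 1 stood above estradiol replicates 1 and 4. Over the estradiol lungs the mean of the 18 genes had the order of Per1, highest in replicate 2. The neutrophil genes given below had that same order, and no test was made of it. In hypoxia against normoxia 3 of the 18 rose, Lcn2 (1.26), Mt1 (0.94) and Sgk1 (0.81), while the median was -0.15, against 0.03 over all genes. In estradiol against normoxia 4 rose, among them Sgk1 (1.03), and 1 fell, Angptl4 (-0.80), both named because of their values, and the median was 0.43. Of all genes, 5.63% passed in hypoxia against normoxia and 5.21% in estradiol against normoxia.

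Immediate early genes, which cells switch on within minutes of a stimulus, averaged 0.27, 1.32, 0.71 and 0.27 above normoxia in the estradiol lungs, again highest in replicate 2. In hypoxia they averaged 0.24, 0.64, 0.06 and 0.12. Of 26 measured none passed in the 3 main comparisons and 6 rose in estradiol against normoxia, where 5.21% of all genes passed. Of 16 measured neutrophil genes 8 rose in estradiol against hypoxia, with a median of 1.36, where 0.772% of all genes passed. None of the 16 passed in fulvestrant against estradiol. Their mean was 0.35, 1.16, 1.02 and 0.23 above normoxia in the estradiol lungs, against -0.76 to -0.16 in hypoxia. The 10 epithelial markers had 0 that passed in estradiol against hypoxia, with a mean between -0.11 and 0.07 on every array. Of 9 endothelial markers 3 rose and 1 fell in hypoxia against normoxia, where 5.63% of all genes passed, and 1 fell in estradiol against hypoxia. The part of glucocorticoid, immediate early and neutrophil genes in the Per1 result was not tested.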

How the data were processed

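The deposited table holds log2 values that the authors made with RMA (background correction, normalization between arrays and summary of probes) and Partek, per the submitters' processing notes, which give no versions. A shift shared by most genes is removed by that step, and arrays carry no count depth, so their number limits the precision. Of 29214 probe sets, 15310 had 1 gene symbol, 323 had several and 13581 had none. The probe set with the highest overall mean was kept for each of 14506 genes. Groups came from the sample titles.

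Group differences were tested with limma 3.58.1 in R 4.3.3, in 1 fit of 4 group means over 16 arrays, with Benjamini-Hochberg adjustment over all genes and a threshold of 0.05. That fit takes 1 spread per gene for all groups, while the SD of the clock genes was largest with estradiol. The SEs, intervals and adjusted p-values rest on that assumption. With only the estradiol and hypoxia arrays in the fit, the adjusted p of Per1 was 0.176. The fit and the permutation tests were tested on simulated data. The members, the gene lists and the rule for named genes were chosen with earlier results of these data known. That rule names all 10 members, the 5 genes most and the 5 least like Bmal1, and up to 4 passing genes of a list with the largest changes in a main comparison (hypoxia against normoxia, estradiol against hypoxia, fulvestrant against estradiol). Endothelial, epithelial and neutrophil genes are given as counts. Alternatives were other normalizations, filters, probe set rules and fits, and leaving out arrays.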

Additional observations from a re-analysis of the deposited data

Results flagged for a closer look

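Of 40 sets of 4 lungs (10 genes in 4 groups), 4 had a lung far from the rest by Dixon's test at the 95% level, which chance gives in about 1 of 20 sets. Bmal1 in hypoxia replicate 2 was 9.39, with the nearest of the other lungs at 9.99 and the farthest at 10.06. Per3 in normoxia replicate 1 was 9.12, above 8.21 to 8.32 in the other normoxia lungs, and Cry1 in the same lung was 8.42, below 9.04 to 9.09. Both of those lungs also had the highest Nr1d1 of their group, at 11.55 and 11.69. Per2 in fulvestrant replicate 2 was 8.32, with the other fulvestrant lungs at 8.54 to 8.56, a span narrower than in any other group.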

How the results depend on the processing

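With 4 arrays per group the count of clock genes that passed changed easily. In estradiol against hypoxia (1 gene) it was 2 with the lowest 20% of genes left out. It was 0 with all probe sets kept, with normoxia replicate 4 counted as hypoxia, with a trended and robust prior, with array weights, without estradiol replicates 2 and 3, and with only the arrays compared in the fit. It ran from 0 to 3 as single arrays were left out, 3 without estradiol replicate 4 (Per1, Per2 and Per3) and 0 without normoxia replicate 2, any hypoxia replicate, estradiol replicate 2 or 3, or fulvestrant replicate 1, 2 or 4. In fulvestrant against estradiol (0 genes) it was 0 to 2, and 2 without estradiol replicate 4. In estradiol against normoxia (2 genes) it was 1 with all probe sets, with normoxia replicate 4 as hypoxia, with the trended prior and with only the arrays compared, and 1 to 6 as arrays were left out. The adjusted p over these alternatives, single left-out arrays aside, was 0.0329 to 0.392 for Per1 against hypoxia and 0.00761 to 0.201 for Npas2 against normoxia. For Per2 against normoxia it was 0.00974 to 0.0415 and always passed, also as single arrays were left out. Over single arrays the range was 0.0131 to 0.124 for Per1, 0.0230 to 0.117 for Npas2 and 0.00706 to 0.0295 for Per2. Pairs with Bmal1 that passed were 8 rather than 3 by r, and 6 rather than 5 by rho, with group means left in. Clock genes with their largest SD in the estradiol group were 6 to 10 without 1 estradiol lung. They were 9 without replicates 2 and 3 and 0 without replicates 1 and 4, settings chosen after seeing the data. The cause of these changes was not tested.

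Some small differences changed sign. With normoxia replicate 4 as hypoxia, Per3 in hypoxia against normoxia was -0.0083. Nr1d1 in estradiol against hypoxia was -0.11 with array weights and, without estradiol replicates 2 and 3, -0.14, where Nr1d1 in fulvestrant against estradiol was 0.37 and Cry1 in estradiol against normoxia 0.29. The correlation of Bmal1 with Clock was -0.092 without estradiol replicates 1 and 4. As single arrays were left out, hypoxia against normoxia ran from -0.18 to 0.0457 for Bmal1, -0.0483 to 0.0191 for Clock, -0.0503 to 0.31 for Per2 and -0.0586 to 0.37 for Per3. Estradiol against hypoxia ran from -0.0541 to 0.33 for Cry1 and -0.0709 to 1.15 for Nr1d1. Fulvestrant against estradiol ran from -0.29 to 0.10 for Cry1 and -0.92 to 0.30 for Nr1d1. Cry1 in estradiol against normoxia ran from -0.30 to 0.0876, and Per1 in fulvestrant against hypoxia from -0.15 to 0.16. No paired analysis was possible because replicates were numbered by accession and the numbers tie no animals together.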
